A study of Homo sapiens with 7 samples.

Results

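Long regions of ubiquitylated histone H2A were examined in HT1080 cells, a human fibrosarcoma line. They were chosen by the measured length of their ubK119 peaks. Peaks of 500 bp or more in either ubK119 list were kept when they shared no base with a peak of either input DNA, and of overlapping peaks the longer was kept. This gave 1164 regions from 1257 peaks, out of 148917 peaks in all 7 lists and 42773 ubK119 peaks. The cells had been transfected with siRNA that targets VRK1, a kinase (siVRK1), or with a siRNA that targets no human gene (siControl). Chromatin was precipitated with antibodies to H2A phosphorylated at T120 (pT120) or ubiquitylated at K119 (ubK119) under both siRNAs, and with an antibody to VRK1 in siControl cells. Input DNA was sequenced under both siRNAs.

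T120 and K119 are neighbouring residues in the tail of H2A. VRK1 is a nuclear kinase of T120, and ubiquitin is attached to K119 mainly by Polycomb complexes, which hold genes in a repressed state and can spread the mark over broad stretches of chromatin. The study's comparison asks what loss of VRK1 does to both marks.

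Each condition was 1 library, so no difference has a replicate check, and no test over conditions was possible. The libraries held 20687408 to 40442635 reads. VRK1 was not profiled after siVRK1, so its depletion is not shown by these data. Levels are RPM, read counts scaled to the total of a library, and a ratio without further words is siVRK1 over siControl. Ranges in brackets are 95% intervals that cover counting error only, since reads copied by PCR need not stand for separate molecules. Positions are in hg19. The lists name no genes, and no gene annotation of that build was used here.

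The siVRK1 list gave 527 long peaks outside input peaks, of 1562 long peaks, and the siControl list gave 730 of 2286. The other 1035 and 1556 long peaks overlapped an input peak. Most regions were only a little over the length limit: the median was 610 bp, 104 regions reached 1 kb and 11 reached 2 kb. Together they covered 816.5 kb. Just inside the limit were regions of 500 bp on chromosomes 18 (9852043 to 9852543) and 5 (1568308 to 1568808), with ubK119 heights of 16 and 17 reads. Just outside it were regions of 499 bp on chromosome 5, from 2274306 to 2274805 and from 11147943 to 11148442, with heights of 22 reads.

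The regions fell into 3 groups by the ubK119 list in which they were called, counting a partner peak of any length. There were 310 regions of the siVRK1 list only (siVRK1-only), 345 of both lists (shared) and 509 of the siControl list only (siControl-only). Shared regions made up 29.6% of the long regions but 3.01% of the 31159 shorter ubK119 regions outside input peaks. They were also the longest, with a median of 686 bp against 597 bp in siVRK1-only and 592 bp in siControl-only regions. All 22 regions of 1500 bp or more were shared. These groups were formed from ubK119 values, so their ubK119 levels are a description: 570.8 RPM in siVRK1 cells against 168.3 RPM in siControl cells at siVRK1-only regions, 789.1 against 436.1 RPM at shared regions, and 350.6 against 552.7 RPM at siControl-only regions. Counted by region, ubK119 was higher by 2-fold or more after siVRK1 in 460 of 1164 regions, or 39.52% against 26.6% of all ubK119 regions outside input peaks, and lower by as much in 140, or 12.03% against 35.0%. The rule fixes much of this, and nothing is read from it. The pT120 and VRK1 libraries took no part in the choice.

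Over all 1164 regions, pT120 summed to 408.0 RPM in siVRK1 cells and 685.2 RPM in siControl cells, a ratio of 0.5955 (0.582 to 0.6095). The summed ubK119 level was 1710.5 RPM in siVRK1 cells and 1157.1 RPM in siControl cells, a ratio of 1.48 (1.46 to 1.497). Almost the same ratios were found where input DNA itself formed peaks. In 33582 regions called in either input, with at most 100 reads in each, pT120 had a ratio of 0.608 (0.605 to 0.612) and ubK119 one of 1.47 (1.465 to 1.479). The intervals of both marks overlap those of the long regions, so neither summed ratio set the long regions apart from these input regions. This set was chosen after values were seen, and other sets differed. Relative to all 34270 regions called in either input, long regions had 0.8466 (0.8273 to 0.8664) for pT120 and 1.036 (1.023 to 1.049) for ubK119. Relative to the 33582 alone, the pT120 value was 0.979 (0.957 to 1.002). The larger set adds only regions with more than 100 reads in an input, so the lower value depends on those regions. Shorter ubK119 regions outside input peaks had ratios of 0.723 (0.718 to 0.729) for pT120 and 1.017 (1.012 to 1.021) for ubK119.

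Set against its own input, pT120 was low in siVRK1 cells and raised in siControl cells. The pT120 level was 0.596 times (0.583 to 0.608) the siVRK1 input of 685.1 RPM, and 1.27 times (1.24 to 1.30) the siControl input of 538.3 RPM. The inputs themselves thus had a ratio of 1.27 (1.246 to 1.299), although no region overlapped an input peak. Against the siVRK1 input, the siControl pT120 level of 685.2 RPM would show no excess. Shorter ubK119 regions outside input peaks had the same pattern. Their pT120 level was 0.6997 times (0.695 to 0.704) input in siVRK1 cells and 1.115 times (1.106 to 1.124) input in siControl cells.

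The 3 groups differed far more from each other than the long regions did from other regions. At siVRK1-only regions pT120 was 54.7 RPM in siVRK1 cells against 175.4 RPM in siControl cells, a ratio of 0.312 (0.295 to 0.330). At shared regions it was 115.8 against 265.5 RPM, a ratio of 0.436 (0.419 to 0.454). At siControl-only regions it was 237.6 against 244.3 RPM, a ratio of 0.973 (0.939 to 1.007) whose interval includes 1. The pT120 ratio was thus lowest where the ubK119 peak was called after siVRK1 only. The ratio at siVRK1-only regions was 0.321 times (0.3005 to 0.342) that at siControl-only regions, and the ratio at shared regions 0.448 times (0.425 to 0.473).

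**Figure D1:**
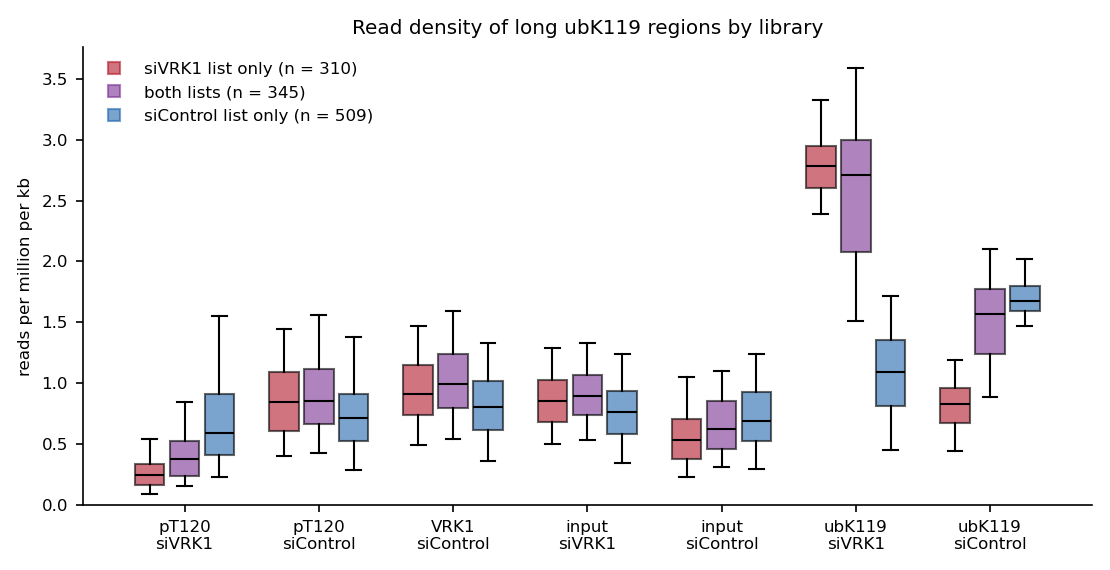
Read density (RPM per kb) of the long ubK119 regions in each library, with siVRK1 left of siControl. Boxes give the quartiles and the median, and whiskers the 5th and 95th percentiles, for the 310 siVRK1-only, 345 shared and 509 siControl-only regions. In siVRK1 cells the pT120 medians climb across the 3 groups, at 0.245, 0.374 and 0.592, while in siControl cells they are 0.843, 0.8504 and 0.711. The ubK119 boxes differ because the groups were formed from these peaks.

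Most of this contrast lay in the siVRK1 pT120 library. Per kb, siVRK1 cells had 0.2699 RPM of pT120 at siVRK1-only, 0.399 RPM at shared and 0.735 RPM at siControl-only regions. In siControl cells the levels were closer together, at 0.865, 0.914 and 0.755 RPM per kb. The boxplot of read densities shows the same for single regions.

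The input libraries moved with the groups as well. The input ratio was 1.52 (1.456 to 1.59) at siVRK1-only, 1.396 (1.35 to 1.445) at shared and 1.05 (1.02 to 1.09) at siControl-only regions. Input was lower by 2-fold or more after siVRK1 in 23 of 1158 regions, or 1.986% against 6.53% of all ubK119 regions, and higher in 213, or 18.39% against 19.5%. Its part in the pT120 result was not tested. Divided by the input of the same siRNA, the pT120 ratio was 0.205 (0.191 to 0.22), 0.312 (0.296 to 0.329) and 0.923 (0.880 to 0.968), so the order of the groups was the same and the spread wider. Relative to the input regions with at most 100 reads, the ratios became 0.513 (0.485 to 0.542), 0.717 (0.688 to 0.7465) and 1.599 (1.54 to 1.66). On that scale pT120 was higher after siVRK1 at siControl-only regions.

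Single regions carried few pT120 reads, with a median of 10 in each of the siVRK1 and siControl pT120 libraries. Of the 1116 regions with at least 10 pT120 reads in both libraries together, 534 had a level lower by 2-fold or more after siVRK1, or 47.85%. Among all ubK119 regions outside input peaks, long and short, the share was 32.2%. A rise of 2-fold or more was found in 59 regions, or 5.287%, against 14.3% in the background. Among the regions counted, long ones had a median of 22 reads and shorter ones 12, and sparse counts cross a 2-fold limit more easily in either direction. The falls were 228 of 281 siVRK1-only, 210 of 337 shared and 96 of 498 siControl-only regions, or 81.14%, 62.31% and 19.28%. In shorter regions of the same 3 groups the shares were 66.45%, 52.25% and 19.19%, so siControl-only regions of either length had about the same share. The rises were 0, 1 and 58 long regions in these groups. Of the siControl-only regions, 11.65% of long ones and 19.87% of shorter ones had such a rise.

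An interval was also computed for each region. Of the 1116 long regions with at least 10 pT120 reads, the interval of the pT120 ratio lay below 1 in 359 and above 1 in 40. The shares were 32.2% and 3.58%, against 13.9% and 3.30% of all ubK119 regions outside input peaks. In the 33582 input regions of few reads the shares, over those with at least 10 pT120 reads, were 21.0% and 1.35%. Shorter regions hold fewer reads and so have wider intervals, and the part of this in the difference was not tested. All 40 long regions above 1 were siControl-only, where 45 others lay below 1. The median of the single ratios was 0.304 at siVRK1-only, 0.4101 at shared and 0.902 at siControl-only regions.

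The direction of both marks was counted region by region, over regions with at least 10 reads of each mark. Less pT120 together with more ubK119 after siVRK1 was found in 573 of 1116 long regions, or 51.3%, against 27.3% of shorter regions and 60.3% of the input regions of few reads. The reverse held in 214 long regions, or 19.2%, against 35.5% of shorter and 11.3% of input regions. All groups of long regions were formed on ubK119, and the ratios of the input regions lie the same way, so these counts are a description. Of the shared regions, 273 of 337 had less pT120 and more ubK119, or 81.0%, against 73.9% of the shorter shared regions. The siVRK1-only and siControl-only lists favour opposite directions of ubK119, although 25 of the 498 siControl-only regions had more ubK119 with less pT120 after siVRK1, and 7 had more of both.

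**Figure D2:**
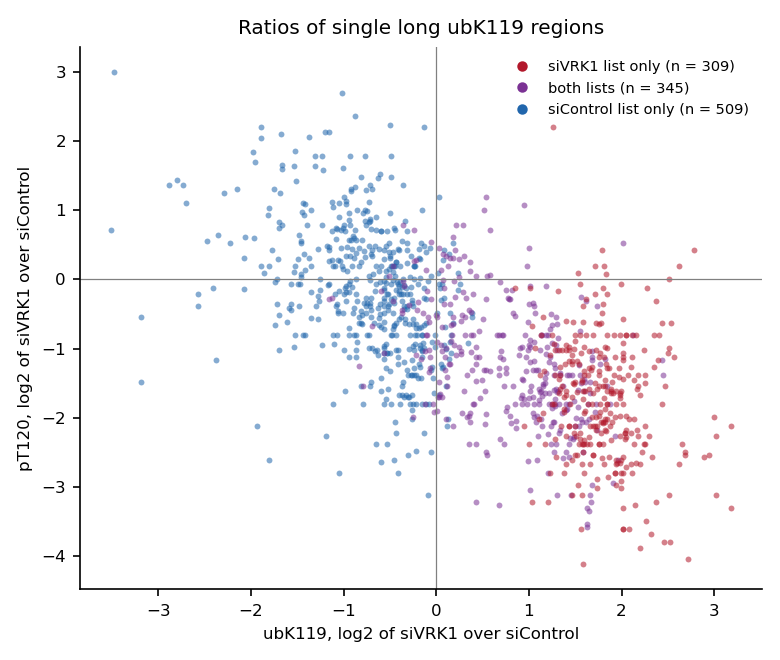
The log2 ratio of pT120 (vertical) against that of ubK119 (horizontal), siVRK1 over siControl, for 1163 single long regions coloured by list; 1 region with 0 pT120 reads after siVRK1 is not drawn. Points of the shared group lie mostly at the lower right, and 60.3% of the input regions of few reads, which are not drawn, had the same signs. The siControl-only points spread on both sides of the horizontal line.

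Across the 1164 regions the density of pT120 in siVRK1 cells fell as the density of ubK119 in siVRK1 cells rose, with a Spearman rho of -0.588. With ubK119 of siControl cells it had a rho of 0.574. These values span groups formed on ubK119. They were -0.0545 and 0.191 within siVRK1-only regions, -0.386 and 0.465 within shared regions and -0.321 and 0.201 within siControl-only regions. In siControl cells pT120 and ubK119 of the same cells were nearly unrelated across all regions, with a rho of -0.0309, while pT120 and VRK1 had a rho of 0.407. Input DNA gave values of similar size. The siVRK1 input had a rho of 0.439 with VRK1 and 0.334 with siControl pT120, and the siControl input 0.218 and 0.175. The siVRK1 pT120 library had a rho of 0.445 with the siControl input but 0.0658 with its own input. These are descriptions across regions of the same 7 libraries, which share length, DNA copies and base composition.

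The shorter ubK119 regions showed the same order of groups. With all groups together, the pT120 ratio of long regions was 0.824 times (0.804 to 0.844) that of shorter regions. Within siVRK1-only regions the long over short value was 0.846 (0.799 to 0.895), an interval that includes 0.824. Within shared regions it was 0.906 (0.859 to 0.956), a smaller gap. Within siControl-only regions it was 1.05 (1.02 to 1.09), so that long regions had the higher ratio. The mix of groups differed as well, since siControl-only regions made up 43.7% of the long and 70.3% of the shorter regions. The input ratio of long regions was likewise 1.10 times (1.08 to 1.13) that of shorter ones.

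**Figure D3:**
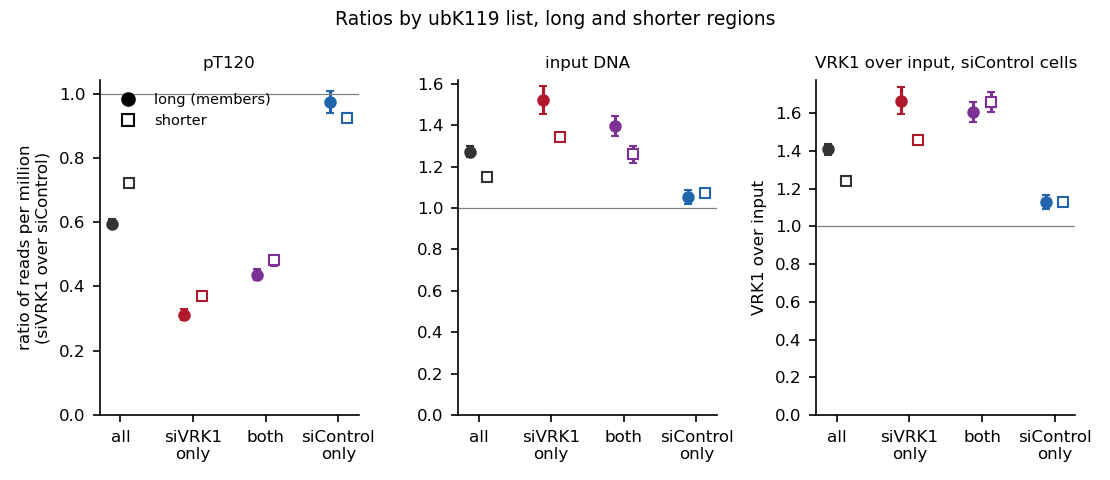
Ratios of summed RPM for all regions and for the 3 groups, with filled points for long and open points for shorter regions and bars for 95% counting intervals. The left panel shows pT120 and the middle one input DNA, both siVRK1 over siControl, and the right panel VRK1 over input in siControl cells. Long and shorter points of a group lie close together, while the siControl-only group stands apart from the other two in each panel.

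Along length, the pT120 ratio of all regions fell in steps, being 0.7398 (0.733 to 0.747) at 200 to 299 bp, 0.641 (0.617 to 0.667) at 500 to 599 bp and 0.548 (0.511 to 0.588) at 1000 to 1499 bp. Within the siVRK1-only group it stayed between 0.278 and 0.374 over all bins. Within the siControl-only group it lay between 0.9001 and 1.14. The 22 regions of 1500 bp or more had a pT120 ratio of 0.289 (0.2604 to 0.3216), below every other bin of shared regions. Their input ratio was 1.685 (1.54 to 1.84), the highest of any bin, and its part was not tested.

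**Figure D4:**
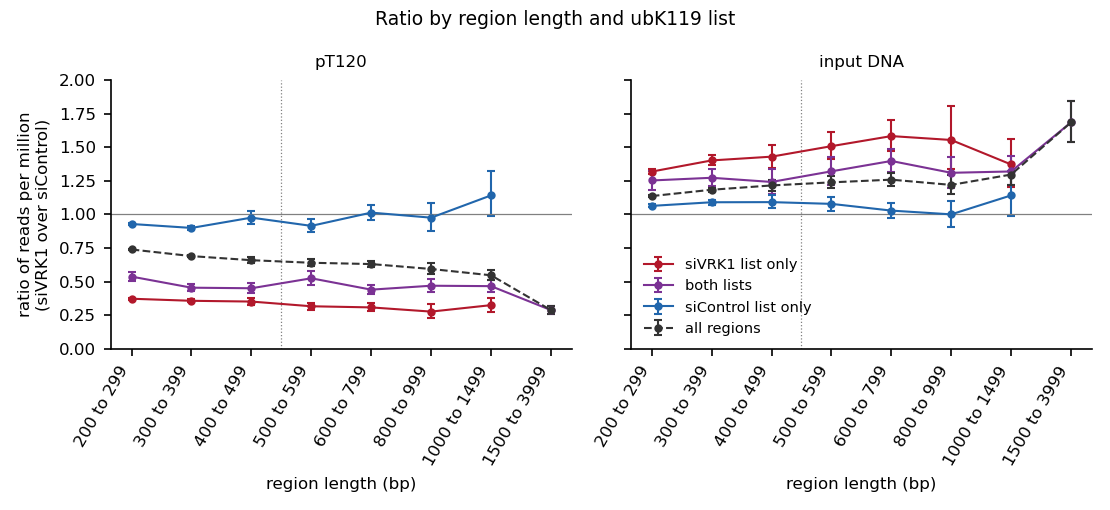
Ratio of summed RPM, siVRK1 over siControl, by region length for pT120 (left) and input DNA (right), with 95% counting intervals; bins with fewer than 10 regions are not drawn, and the dotted line marks the limit of 500 bp. The dashed line for all regions falls with length for pT120, whereas the siVRK1-only line stays between 0.278 and 0.374 and the siControl-only line between 0.9001 and 1.14. At 1500 bp or more all 22 regions were shared, with ratios of 0.289 for pT120 and 1.685 for input.

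The longest shared regions show how the libraries looked in one place. On chromosome 5, 956127 to 958976, pT120 had 0.833 RPM in siVRK1 cells and 2.997 RPM in siControl cells, a ratio of 0.278 (0.173 to 0.436). The ubK119 level there was 9.77 against 3.39 RPM, input 2.77 against 1.56 RPM, and VRK1 3.745 RPM in siControl cells. On chromosome 3, 133665905 to 133668594, pT120 had 1.11 RPM after siVRK1 against 3.53 RPM in siControl cells, a ratio of 0.315 (0.208 to 0.469). Here VRK1 had 3.43 RPM against 2.23 RPM in the siControl input. These regions were called with the VRK1 antibody but in neither pT120 list. On chromosome 1, 113057344 to 113060215, pT120 had 0.944 RPM in siVRK1 cells against 1.69 RPM in siControl cells. In siControl cells that was 0.689 times (0.444 to 1.05) its input, so pT120 showed no excess over input there. The regions of 3945 bp on chromosome 5 (1552816 to 1556761) and 3929 bp on chromosome 11 (44878724 to 44882653) had VRK1 at 2.396 times (1.75 to 3.32) and 1.495 times (1.09 to 2.06) the siControl input.

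The longest siVRK1-only region, 1441 bp on chromosome 12 (3238848 to 3240289), had 10 pT120 reads in siVRK1 cells and 26 in siControl cells, a ratio of 0.221 (0.095 to 0.473). Its ubK119 reads were 139 and 53. The other 4 of the 5 longest, on chromosomes 21, 13, 19 and 3, had pT120 ratios of 0.172, 0.323, 0.1325 and 0.399. All 5 intervals lay below 1. The siControl-only regions behaved differently. Their longest, 1459 bp on chromosome 5 (968360 to 969819), had 37 pT120 reads in siVRK1 cells and 24 in siControl cells, a ratio of 0.885 (0.516 to 1.55). On chromosome 18, 6394593 to 6395837, 64 reads were found after siVRK1 against 18 in siControl cells, and the RPM ratio was 2.04 (1.195 to 3.66), with ubK119 at 18 and 85 reads. The other 3, on chromosomes 7, 11 and 3, had ratios of 0.709, 1.82 and 0.995 with intervals that include 1.

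A pair of the longest regions lay close together on chromosome 3 with opposite ubK119 calls. The siVRK1-only region from 128157169 to 128158420 had 25 pT120 reads in siVRK1 cells and 36 in siControl cells, which gives 0.399 (0.229 to 0.683). The siControl-only region from 128152684 to 128153789 had 26 reads in siVRK1 and 15 in siControl cells, which gives 0.995 (0.508 to 2.02). Such close neighbours were then collected over the genome, a comparison chosen after values were seen. In 51 pairs of adjacent regions no more than 10000 bp apart, one was siVRK1-only and the other siControl-only, with 46 and 48 distinct regions. The pT120 ratio was lower in the siVRK1-only partner in 47 of 51 pairs. Summed over the 51 pairs, it was 0.309 (0.272 to 0.3502) at the siVRK1-only and 0.7696 (0.682 to 0.868) at the siControl-only partners. The input ratios were 1.56 (1.399 to 1.73) and 1.22 (1.096 to 1.37). A region that belonged to several pairs was counted in each of them, so the intervals of these sums understate counting error. All 51 pairs come from the same libraries, so they are not replicates, and no such count is given here for shorter regions. The contrast within pairs is a description, and its cause was not tested.

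At the extremes of the pT120 ratio, the lowest regions were siVRK1-only or shared and the highest were siControl-only. The lowest among regions with at least 20 pT120 reads was on chromosome 19 (47016827 to 47017391), with 2 reads in siVRK1 cells and 19 in siControl cells. Next came chromosome 17 (21220293 to 21220899), with 3 and 22 reads, and chromosome 5 (1565063 to 1566855), with 8 and 55 reads and a ratio of 0.0835 (0.0344 to 0.176). The regions on chromosomes 19 and 17 were siVRK1-only, and that on chromosome 5 was shared. All 3 overlapped a VRK1 peak and a siControl pT120 peak. The highest ratio was on chromosome 17 (36301382 to 36301889), where siVRK1 cells had 42 reads and siControl cells 3, giving 8.04 (2.57 to 40.5). It was followed by chromosome 18 (6519609 to 6520266), with 34 and 3 reads, and chromosome 20 (29629299 to 29629917), with 41 and 5 reads. These 3 were siControl-only regions with a siVRK1 pT120 peak and no VRK1 peak. Being picked as extremes, these 6 values describe the range and support no direction.

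VRK1 was somewhat above input over the regions. In siControl cells VRK1 summed to 759.0 RPM against 538.3 RPM of input, a ratio of 1.41 (1.38 to 1.44), and against the siVRK1 input of 685.1 RPM the excess was smaller. The ratio was 1.665 (1.594 to 1.74) at siVRK1-only, 1.61 (1.55 to 1.66) at shared and 1.13 (1.09 to 1.17) at siControl-only regions. VRK1 was 2-fold or more over input in 279 of 1159 regions with enough reads, or 24.07%, close to the 23.4% of all ubK119 regions. The siControl input per kb was lowest where this ratio was highest, at 0.565 RPM in siVRK1-only regions against 0.729 RPM in siControl-only regions. The highest single values rested on few input reads. On chromosome 1 (22880334 to 22880978) 25 VRK1 reads stood against 2 input reads, on chromosome 11 (45109507 to 45110058) 21 against 2, and on chromosome 10 (73368643 to 73369154) 23 against 3. Only the last overlapped a VRK1 peak.

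A VRK1 peak overlapped 161 regions, or 13.83%, against 3.93% of all ubK119 regions. Longer regions meet other peaks more readily, and no test separated length from this difference. By group the share was 10.97% of siVRK1-only (7.72 to 14.99), 25.51% of shared (20.99 to 30.45) and 7.66% of siControl-only regions (5.505 to 10.33), with exact Clopper-Pearson intervals. In shorter regions of the same groups the shares were 5.367%, 17.7% and 2.264%. Shared regions made up 29.6% of the long but 3.01% of the shorter regions, and the part of this mix was not tested. The pT120 ratio was 0.468 (0.444 to 0.493) in regions with a VRK1 peak and 0.6325 (0.616 to 0.649) in regions without one. Within the groups the gap was smaller. Regions with over regions without a VRK1 peak gave 0.8902 (0.7599 to 1.04) at siVRK1-only, 0.8296 (0.763 to 0.902) at shared and 1.01 (0.905 to 1.14) at siControl-only regions, so that it lay beyond counting error at shared regions only. In those 88 shared regions the pT120 ratio was 0.387 (0.362 to 0.414), against 0.467 (0.444 to 0.491) in the other 257.

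Peaks of pT120 fell in different groups under the siRNAs. A siVRK1 pT120 peak overlapped 140 regions, or 12.03% against 4.69% of all ubK119 regions, and 121 of these were siControl-only. By group the share was 0.645% of siVRK1-only, 4.93% of shared and 23.77% of siControl-only regions. Of 1375 shorter regions with such a peak, 1258 were siControl-only, and the shares of the 3 groups were 0.385%, 9.06% and 5.74%. A siControl pT120 peak overlapped 49 regions, or 4.21% against 0.962%. Of these, 13 were siVRK1-only, 23 shared and 13 siControl-only, or 4.19%, 6.67% and 2.55% of the groups. In the 262 shorter regions with a siControl pT120 peak, the counts were 83, 59 and 120, or 0.999%, 6.29% and 0.548% of these groups. The siVRK1 pT120 library was deeper and its list longer, with 42461 peaks against 6665, so the numbers do not compare levels. Both pT120 lists had a peak in 11 regions. All 5 antibody lists had one in 4 regions, and 873 regions, or 75.0%, had no peak of VRK1 or pT120. Shares over all ubK119 regions are not given here for these combinations of lists, so the counts are a description only.

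The regions were unevenly spread over the genome. Chromosomes 5, 18 and 3, with 227, 134 and 125 regions, held 41.75% of them, against 29.32% of all ubK119 regions outside input peaks. About as many regions had a neighbour within 10000 bp as stood alone, at 638 of 1164 or 54.8%. In windows of 1 Mb, 22 windows with 10 or more regions held 558 of them, or 47.94%. The fullest were 1 to 2 Mb on chromosome 5 with 115 regions, 6 to 7 Mb on chromosome 18 with 81, and 112 to 113 Mb on chromosome 13 with 41. These windows held 489, 435 and 327 ubK119 regions outside input peaks, long and short together. Shares of shorter regions with close neighbours or in full windows are not given here, so the clustering is not shown to be particular to long regions.

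**Figure D5:**
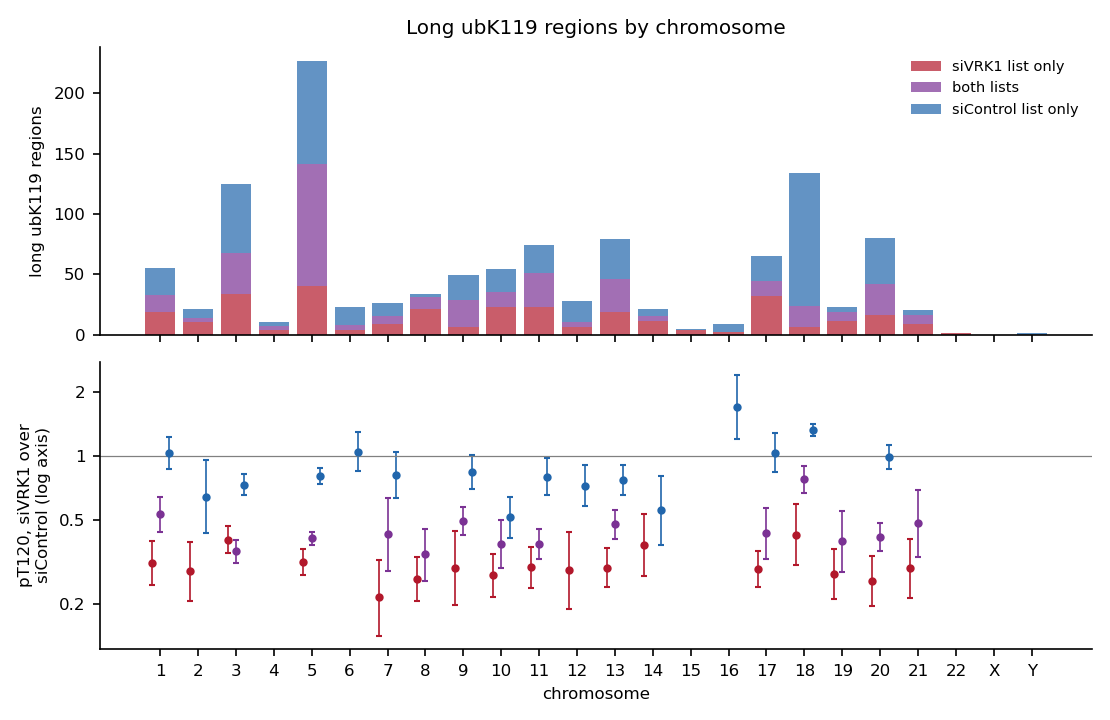
Number of long ubK119 regions per chromosome by list (top) and the pT120 ratio, siVRK1 over siControl, on a log axis with 95% counting intervals for chromosome and list combinations of 5 or more regions (bottom). Chromosomes 5, 18 and 3 are fullest with 227, 134 and 125 regions. The siVRK1-only points lie between 0.217 and 0.426 and below the siControl-only points on all 14 chromosomes that have both.

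The pT120 ratio was below 1 on 17 of the 18 chromosomes with 20 or more regions, each with its interval below 1. Chromosome 8 had the lowest, at 0.304 (0.2555 to 0.361), and chromosome 18 the highest, at 1.18 (1.12 to 1.252). Of the 134 regions on chromosome 18, 110 were siControl-only, whereas of the 34 on chromosome 8 there were 3. On 14 chromosomes with at least 5 siVRK1-only and 5 siControl-only regions, the ratio was lower at siVRK1-only regions in 14. It ranged from 0.217 to 0.426 at siVRK1-only and from 0.514 to 1.33 at siControl-only regions. The ordering of all 3 groups was the same on 10 of the 11 chromosomes with 5 regions in each group, chromosome 3 being the exception.

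The fullest windows show both patterns. In the window of chromosome 5, pT120 had 0.403 RPM per kb in siVRK1 cells and 0.985 RPM per kb in siControl cells, a ratio of 0.4096 (0.382 to 0.439). By group the ratio was 0.289 (0.237 to 0.351) at 21 siVRK1-only, 0.3935 (0.362 to 0.427) at 71 shared and 0.706 (0.585 to 0.853) at 23 siControl-only regions. In the window of chromosome 18, pT120 had 1.09 RPM per kb in siVRK1 cells and 0.919 RPM per kb in siControl cells, a ratio of 1.185 (1.10 to 1.28). The 70 siControl-only regions there had a ratio of 1.29 (1.19 to 1.399), and the 10 shared ones 0.731 (0.602 to 0.889). The input ratio was 1.62 (1.52 to 1.73) in the first window and 0.975 (0.907 to 1.05) in the second. In the window of chromosome 13 the ratios were 0.272 (0.198 to 0.3697) at 11 siVRK1-only, 0.467 (0.366 to 0.594) at 13 shared and 0.787 (0.627 to 0.9897) at 17 siControl-only regions.

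Without chromosome 18, the pT120 ratio of all long regions was 0.513 (0.5002 to 0.5265), and that of siControl-only regions was 0.8445 (0.8099 to 0.881), now below 1 beyond counting error. The siVRK1-only and shared regions had 0.309 and 0.415 without it. With scaling to library totals, the near balance of pT120 at siControl-only regions was thus seen only with chromosome 18 included. The order of the groups was the same without it. Scaled to reads in input regions, siControl-only regions of all chromosomes had 1.383 (1.335 to 1.432), so their side of 1 depends on the scaling.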

How the data were processed

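Each of the 7 peak lists came from 1 library: pT120, ubK119 and input DNA under siVRK1 and siControl, and VRK1 under siControl. Fixed, sonicated nuclei were used, with 20 cycles of PCR and 36 of sequencing per the labels' protocols. Bowtie 0.12.8, CASAVA 1.8.2, Partek and the build hg19 appear in the submitters' processing notes, which do not give their roles. Not given in the sources used here are the caller settings, the handling of duplicates, the use of input in calling and the origin of positions (0 or 1). PCR duplicates and repeated sequence can raise counts.

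Per the file headers, each list gives the peak height as a signal (extended reads at the highest window), that height as RPM, each library's raw read count for the region, and the percent of a region covered by peaks of other libraries. Height over RPM, both deposited by the authors, gave the library totals. Counts were divided by these totals, so 3 reads correspond to 0.0742 to 0.145 RPM.

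Overlap meant 1 bp. Ratios have exact conditional binomial 95% intervals and ratios of ratios log-normal counting intervals (Python 3.11.15, SciPy 1.17.1). The exact intervals were tested on simulated pT120 counts summed over the long regions, with counting error only. That test did not cover the log-normal intervals. Overlap calls from positions and from the deposited percent differed in 0 cases. Spread between regions is wider than counting error and is not in the intervals of sums. The background was all 32323 long and shorter ubK119 regions outside input peaks, with a call at 2-fold and at least 10 reads of both libraries.

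The members and the comparisons were chosen with earlier results of these data known. Named regions are the 5 longest of each group, the 3 lowest and 3 highest pT120 ratios with at least 20 reads, the 5 longest with a VRK1 peak, the 3 highest VRK1 over input with at least 20 reads, and 2 on each side of the length limit. Alternatives changed the scaling, the length limit, the lists, the input distance, the chromosomes and the call rule. No genes were assigned, since no hg19 annotation was used here.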

Additional observations from a re-analysis of the deposited data

Results flagged for a closer look

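After siVRK1 the summed pT120 ratio of the long regions was 0.5955 and the ubK119 ratio 1.48. They lie on opposite sides of 1 in the single library pair of each antibody, and this difference was not tested. On chromosome 18 the pT120 ratio of the long regions was 1.18, against 0.513 on the other chromosomes, again with 1 library under each siRNA and no test of the difference.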

How the results depend on the processing

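The pT120 ratio of 0.5955 stayed below 1 under all 14 alternatives. It was 0.8466 scaled to reads in input regions, whose own pT120 ratio is -0.51 on the log2 scale, and 0.468 with each library over its own input. It was 0.6145 at a minimum length of 400 bp and 0.446 at 1000 bp, 0.332 for peaks of the siVRK1 list and 0.810 for those of the siControl list, 0.553 without an input peak within 1000 bp, 0.625 without chromosome 5, and 0.517 as the median of single regions. Chosen after seeing the data were 0.513 without chromosome 18, 0.979 scaled to input regions with at most 100 reads, with an interval (0.957 to 1.002) that includes 1, and 0.8235 scaled to shorter regions. The ubK119 ratio of 1.48 was 1.04 scaled to input regions, 1.16 over its own input, 1.99 at 1000 bp, 2.77 for the siVRK1 list and 1.60 without chromosome 18. It turned to 0.877 for the siControl list, as the choice by that list favours. For a minimum of 1000 bp, the siVRK1 list and the siControl list, the input ratio was 1.41, 1.48 and 1.14, VRK1 over input 1.64, 1.68 and 1.25, pT120 over input 0.462, 0.339 and 0.798 in siVRK1 cells and 1.46, 1.51 and 1.12 in siControl cells. The 534 regions with pT120 lower by 2-fold became 274 with at least 20 reads, of 659 tested, and 346 scaled to input regions. With a 1.5-fold limit there were 677, and with an interval below 1 there were 359. Shares over all ubK119 regions are not given here for the counts of 274, 346 and 677. Those counts therefore do not compare long regions with others. Scaled to input regions, siControl-only regions had a pT120 ratio of 1.38 (1.33 to 1.43). No paired analysis was possible because each condition had 1 library. Replicates could not be left out for the same reason, and single regions with a median of 10 pT120 reads per library allow no fine ranking.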
